A study of Mus musculus with 2 samples.

Results

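Genes of the transcription machinery, namely subunits of the RNA polymerases, general transcription factors, TBP-associated factors (TAFs), Mediator, Integrator and the SUPT proteins, were described in a BUD31 RNA immunoprecipitation sequencing (RIP-seq) assay of mouse germ cells. BUD31 is a protein of the spliceosome, and the assay recovers RNA bound to it or to complexes that hold it. Members were chosen by gene symbol (Polr, Gtf or Supt as a start, or Ints, Med or Taf followed by a digit, Taf4b left out) among peaks whose transcript is typed as protein-coding. This gave 30 genes with 161 peaks, of 2710 genes and 14411 peaks of that type and of 16331 peaks in all.

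The study held 2 libraries of testicular germ cells of C57BL/6J mice at postnatal day 14, when the first meiotic prophase is under way. The RNA came from an anti-BUD31 precipitation in 1 library and from input (10% of the total RNA) in the other. Both groups were C57BL/6J cells released from the testis by enzymes, with no mutant allele and no other agent named, so by their labels they differ in the precipitation. The only file is the authors' list of peaks on mm10, with a gene and an annotation class for each peak and no count, fold or score, so depth is unknown. There was 1 library per group, so nothing could be tested and no p-value is given. Shares are given with 95% Wilson intervals, which hold counting error alone, because genes and peaks are not replicates. Where a median has an interval, it is the exact binomial (order statistic) interval at 95%, with the same limit.

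RNA polymerase I makes ribosomal RNA, RNA polymerase II makes messenger RNA and many noncoding RNAs, and RNA polymerase III makes transfer RNA, 5S ribosomal RNA and other short RNAs. General transcription factors (TFIIA to TFIIH for RNA polymerase II, TFIIIC for RNA polymerase III) place the polymerase at the promoter, and Mediator links it to factors bound elsewhere. Integrator cleaves nascent transcripts, and germ cells are known to replace some general factors with paralogs such as TAF7L.

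Peaks lay on 15 chromosomes, and 8 of these (1, 5, 8, 10, 12, 16, 18 and X) passed a threshold of 10% of coding genes with a peak and are called well covered. All members lay on those 8. The reference table lists 128 coding genes with these symbols, of which 37 lie on chromosomes without a peak in the list and 46 on the 7 thinly covered ones. None of those 46 had a peak, which includes Polr2a, the catalytic subunit of RNA polymerase II, on chromosome 11, where 0.0622% of coding genes had one. Nothing is read from their absence. Of marker genes on chromosomes with a peak, 4 of 5 germ cell genes had one (Tex11, Sycp2, Mael and Sycp3), 2 of 5 Sertoli cell genes did (Kitl with 6 peaks and Wt1 with 1), and none of 3 Leydig cell and 5 macrophage genes did, against 18.8% of all coding genes there. On the well covered chromosomes these lists hold only 3, 3, 2 and 1 genes, of which 3, 1, 0 and 0 had a peak, so little can be read from them. The part of somatic cells in the peaks described here was not tested.

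Transcription genes had a peak more often than coding genes as a whole. Of the 91 on chromosomes with a peak 34 had one (37.4%, interval 28.1% to 47.6%), against 18.8% of 14867 coding genes. On the well covered chromosomes 34 of 45 had one (75.6%, 61.3% to 85.8%), against 35.7% of 7352. These counts take every peak that names the gene, whatever its transcript type. When a gene counted for any overlap with a peak, 36 of 91 had one, against 19% of coding genes. The share was above that of all coding genes in each group of gene length: 5 of 12 against 14.7% under 10 kb, 7 of 7 against 34.3% from 10 to 20 kb, 13 of 16 against 44.6% from 20 to 50 kb, and 9 of 10 against 52.4% from 50 kb. It was also above on each well covered chromosome, with the least distance on chromosome 8 (1 of 6, against 14.8%) and on chromosome 18 (1 of 2, against 37.8%). On chromosomes 8, 12 and 18 the interval of these few genes spans the background. Levels of the RNAs in the input are not in the list, so the part of expression in this difference was not tested.

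**Figure D1:**
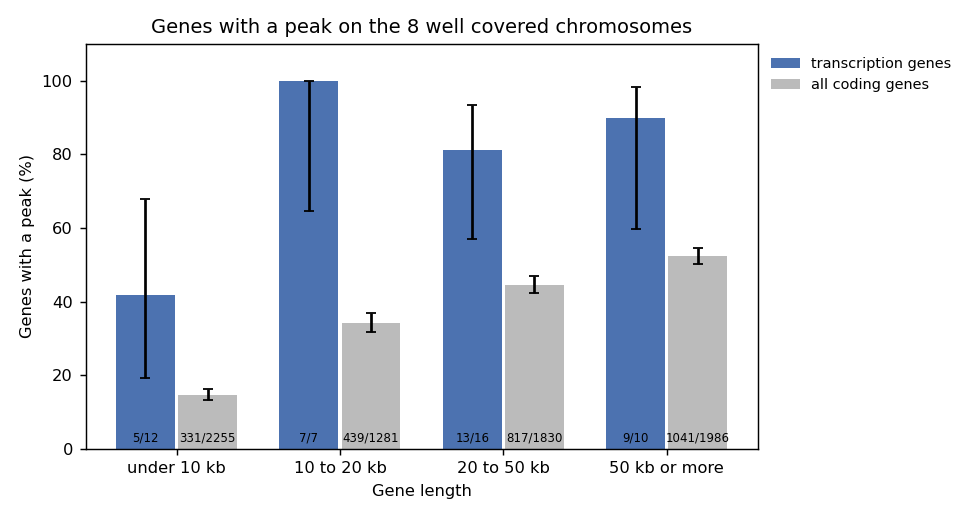
Share of genes with a peak (%) on the 8 well covered chromosomes by gene length, for transcription genes (blue) and all coding genes (grey), with 95% Wilson intervals as bars and gene counts at the base. Transcription genes stand above all coding genes in every group, from 41.7% against 14.7% under 10 kb to 90% against 52.4% at 50 kb or more.

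By family, 8 of 9 RNA polymerase genes on the well covered chromosomes had a peak, against 35.7% of all coding genes there. So did 9 of 11 general transcription factor genes (the TFII-I genes described below included) and 7 of 9 Mediator genes. Of the TAF genes 6 of 10 did, of the Integrator genes 3 of 4 and of the SUPT genes 1 of 2. The intervals of these last families hold the 35.7% (31.3% to 83.2%, 30.1% to 95.4% and 9.45% to 90.5%), and those of the others lie above it. The 11 genes without a peak were Polr2c, Gtf2ird2, Gtf3a, Med26, Med28, Taf1c, Taf5l, Taf6, Taf7, Ints10 and Supt4b. Of these, 5 lie on chromosome 8, the most sparsely covered of the 8, and 7 are shorter than 10 kb.

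The members ran from 1 to 29 peaks, with a median of 2, which is also the median of all coding genes with a peak. A single peak was found in 11 members (36.7%, against 32% of all coding genes with a peak) and 5 or more in 11 (36.7%, against 32.1%). The 3 genes with the most, Med13l with 29, Ints7 with 25 and Taf1 with 14, held 42.2% of the peaks. By class 140 peaks lay in introns (87%, 80.9% to 91.3%), against 84.6% for all coding genes. Counted by covered base pairs the order was reversed, with 83.4% in intron peaks against 87%. Exons held 10 peaks in 6 genes (6.21%, 3.41% to 11.1%, against 3.71%), and 3′ UTRs held 8 in 7 genes (4.97%, 2.54% to 9.5%, against 5.43%). No peak was in a 5′ UTR (against 0.729%). The 3 intergenic peaks made up 1.86% (0.636% to 5.33%), against 5.57% outside genes for all coding genes. Since a peak has only 1 class, a wide one can cover exons and introns together, and the list gives no strand.

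**Figure D2:**
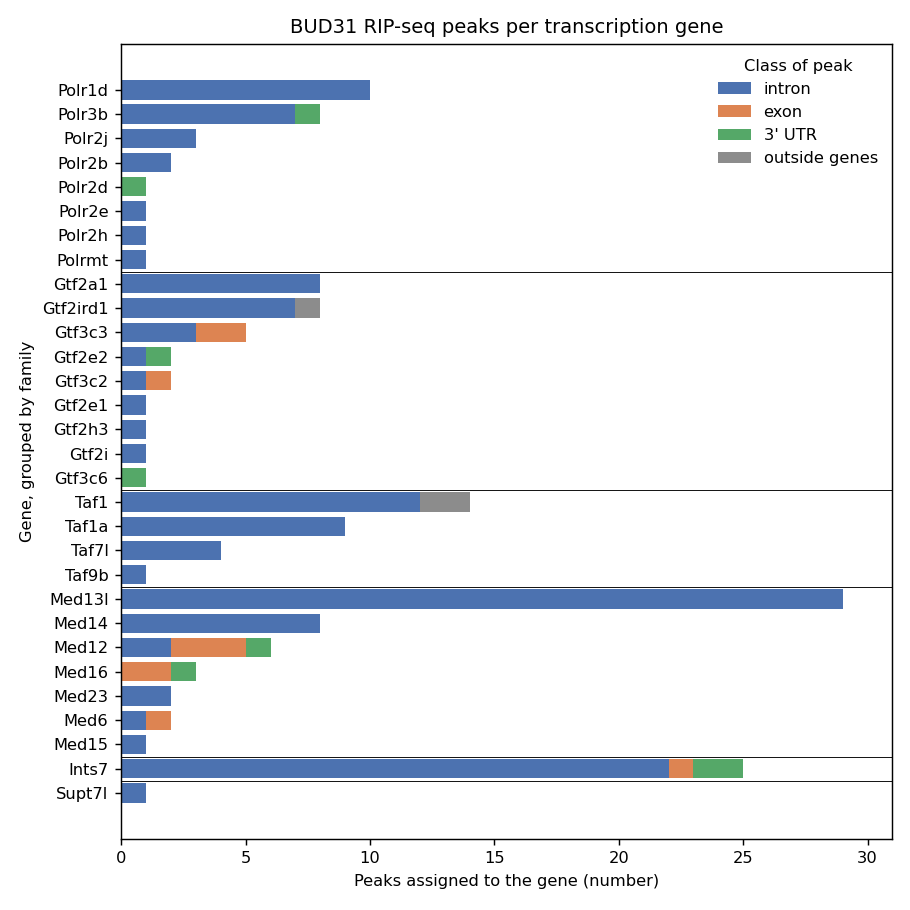
Number of peaks assigned to each of the 30 genes, in blocks by family, coloured by the authors' annotation class. Intron peaks (140 of 161) make up most bars, and Med13l (29), Ints7 (25) and Taf1 (14) have the longest.

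The RNA polymerase genes held 27 peaks in 8 genes, and 18 of the 27 were in Polr1d and Polr3b. The peaks were 200 to 2200 bp wide with a median of 800 bp, which is also the median of coding genes on chromosome 5, and 25 lay in introns. None was 5 kb or wider. Among all peaks of coding genes 3.59% were so on chromosome 5, 2.61% on chromosome 10, 9.2% on chromosome 16 and 37% on chromosome 18, and of the RNA polymerase peaks only those of Polr2h and Polr2d, 1 each, lie on the last 2. Polr1d, a subunit shared by RNA polymerases I and III, carried 10 intron peaks of 200 to 1600 bp on chromosome 5, 147076715 to 147111361. They covered 17.9% of the gene, and the first began at 147078001. Polr3b, the second-largest subunit of RNA polymerase III, carried 8 peaks over 7.03% of its 105 kb on chromosome 10. Of these, 7 lay in introns and the last, of 1600 bp at 84725601 to 84727200, was in the 3′ UTR and covered the annotated end of the gene.

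Polr2b, which forms the active centre of RNA polymerase II together with the catalytic subunit, carried 2 intron peaks of 1400 and 2200 bp over 9.27% of the gene. Polr2j, a small subunit of the same enzyme, carried 3 intron peaks within 6.26 kb, over 22.4% of the gene. Subunits that all nuclear polymerases share, Polr2e and Polr2h, had 1 intron peak each, of 800 and 600 bp, in genes of 3.71 and 4.45 kb. Polr2d, part of the stalk of RNA polymerase II, had 1 peak of 1200 bp in its 3′ UTR. Polrmt, the mitochondrial RNA polymerase, had 1 intron peak of 1200 bp. In this family the covered part ran from 7.03% to 22.4%, so no gene was covered for the most part.

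Genes with a Gtf symbol, which include the TFII-I family, differed widely in how much of the gene was covered. It ran from 0.501% in Gtf2i, of that family, to 68.8% in Gtf3c2. The most covered were Gtf3c2 and Gtf3c3, subunits of TFIIIC, the factor that binds RNA polymerase III promoters. Gtf3c2 carried 2 peaks, an exon peak of 12800 bp and an intron peak of 3800 bp, separated by 400 bp. Gtf3c3 carried 5 peaks of 1230 to 8200 bp, 3 in introns and 2 in exons, over 62.7% of chromosome 1, 54395877 to 54439026. Gtf3c6 had a single peak of 2000 bp in its 3′ UTR over 20% of the gene. These are all 3 TFIIIC genes on the well covered chromosomes (interval 43.9% to 100%), where 35.7% of coding genes had a peak. Gtf3c4 and Gtf3c5, on the thinly covered chromosome 2, had none.

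Gtf2a1, the large subunit of TFIIA, carried 8 intron peaks of 205 to 4715 bp over 40.7% of chromosome 12, 91555262 to 91590487. The widest, at 91571656 to 91576370, also spans a small nucleolar RNA gene, Gm25776, in full. Both TFIIE genes had peaks: Gtf2e1 had 1 of 3600 bp, and Gtf2e2 had 1 intron peak of 2200 bp and 1 of 1200 bp in the 3′ UTR. Gtf2h3, a subunit of the TFIIH core, had 1 intron peak of 2000 bp.

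The TFII-I genes Gtf2ird2, Gtf2i and Gtf2ird1 lie near each other on chromosome 5, 19.7 kb and 40 kb apart, and encode related proteins with repeated DNA-binding domains. Gtf2ird1 carried 8 peaks of 200 to 1600 bp over 5.44% of its 99.2 kb. Of these, 4 lay between 18.9 and 23.9 kb after the start, and 1 was an intergenic peak of 800 bp that began 3.53 kb before it. Gtf2i had 1 intron peak of 400 bp, at 134277801 to 134278200, assigned to a coding transcript. Another 4 peaks of Gtf2i, of 600 to 1800 bp, were assigned to a noncoding transcript, and with them 6.76% of the gene was covered. No peak named Gtf2ird2. Reads could be shared among these related genes, so the split between them is uncertain.

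Only 2 members had a peak over the annotated start of the gene, Gtf2e1 and Supt7l, among the 27 with a strand in the promoter table (7.41%, against 8.9% of all coding genes with a peak). Supt7l, a subunit of the SAGA coactivator, had 1 intron peak of 6800 bp over 47.3% of the gene. Each shares its start region with a gene transcribed the other way, Rabl3 and Slc4a1ap, and the peak reached 543 bp and 1020 bp into that neighbour. The stretches between the paired starts, 68 and 18 bases long, are shown because the peak runs through them from 1 gene into the next. Both were taken from RefSeq (GRCm38.p6), minus strand, 5′ to 3′ towards Gtf2e1 or Supt7l, at chr16:37539790-37539857 and chr5:31526763-31526780, with a CCAAT motif on either strand in capitals. The labels name the pair of genes and not the direction. The first base printed stands next to Rabl3 or Slc4a1ap, and the last next to Gtf2e1 or Supt7l.

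Gtf2e1 to Rabl3: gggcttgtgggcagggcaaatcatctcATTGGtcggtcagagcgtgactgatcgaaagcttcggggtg
Supt7l to Slc4a1ap: tgcatgtaggctagtaat

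The stretch before Gtf2e1 held 1 CCAAT, on the other strand, and no TATAAA. Windows of the same length before 14101 coding gene starts held CCAAT in 14.1% and TATAAA in 4.37%. The stretch before Supt7l held neither, and windows of its length held them in 2.18% and 0.383%. Without strand in the list, the RNA of Gtf2e1 and Rabl3, or of Supt7l and Slc4a1ap, cannot be told apart within these peaks.

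TAF genes on the X chromosome were covered for the most part. Taf1, the largest TFIID subunit, carried 14 peaks of 920 to 16100 bp, and they covered 81.2% of X, 101527572 to 101601789, the largest covered part among the members. Its 12 intron peaks followed each other from 1.79 kb after the start to the end of the gene, which the last of them covers. The other 2 were intergenic, 920 bp each, at 101501991 to 101502910 and 101510731 to 101511650, and overlap no gene of the reference table. Taf9b, a paralog of Taf9 that may share reads with it, had a single intron peak of 10810 bp over 75.7% of the gene. Taf7l, the germ cell paralog of Taf7, carried 4 intron peaks of 920 to 2990 bp over 50.5% of X, 134460116 to 134476505. On chromosome 1, Taf1a, a TAF of the RNA polymerase I selectivity factor SL1, carried 9 intron peaks of 205 to 1025 bp over 21.2% of the gene.

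Mediator genes held 51 peaks in 7 genes, of which 29 were in Med13l, a paralog of the kinase module subunit Med13. All 29 lay in introns, from 200 to 4000 bp wide, over 19.6% of chromosome 5, 118560330 to 118765438. Med12, the kinase module subunit that activates the kinase, carried 6 peaks over 50.1% of X, 101274091 to 101298934, and was the member with the most exon peaks. Of these 3 were exon peaks, 2 were intron peaks and 1 lay in the 3′ UTR and reached 412 bp into the next gene, Nlgn3. Med14, the backbone that joins the Mediator modules, carried 8 intron peaks over 57.5% of its 87.2 kb. Its widest, of 18400 bp, is the widest of all the members' peaks and also covers 75.9% of a long noncoding RNA gene, Gm52422.

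Med6, a head module subunit, carried an intron peak of 6150 bp and an exon peak of 7175 bp over 62.1% of the gene. The second also spans a pseudogene, Gm16570. Among tail subunits, Med16 had 2 exon peaks of 200 and 800 bp and 1 of 600 bp in the 3′ UTR, with none in an intron, and Med15 had 1 intron peak of 5200 bp. Med23, another tail subunit, had 2 intron peaks of 1000 and 1600 bp over 5.97% of the gene. The narrower, at chromosome 10, 24910001 to 24911000, spans the microRNA gene Mir6905 at 24910664 to 24910733. Its mature RNA in the RefSeq table (GRCm38.p6) is shown, with the seed (bases 2 to 8) in capitals, since a read there could come from either gene.

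mmu-miR-6905-3p: aAAUAACCuuaucugcccgau

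Ints7, a subunit of Integrator, carried 25 peaks within 48.2 kb, or 5.19 per 10 kb, the highest density among the members. They were 205 to 2665 bp wide, with 22 in introns, 1 in an exon and 2 in the 3′ UTR, and covered 47.1% of chromosome 1, 191575540 to 191623690. The first began 8.03 kb after the start and the last covered the annotated end of the gene. Neighbouring peaks were separated by a median of 410 bp, which is 2 bins of 205 bp. A bin here is the largest step that fits all peak widths and starts of a chromosome. It was inferred from the positions and is not given by the submitters. Only Polr2j, with 4.79 per 10 kb, and Taf1a, with 4.22, came near this density.

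**Figure D3:**
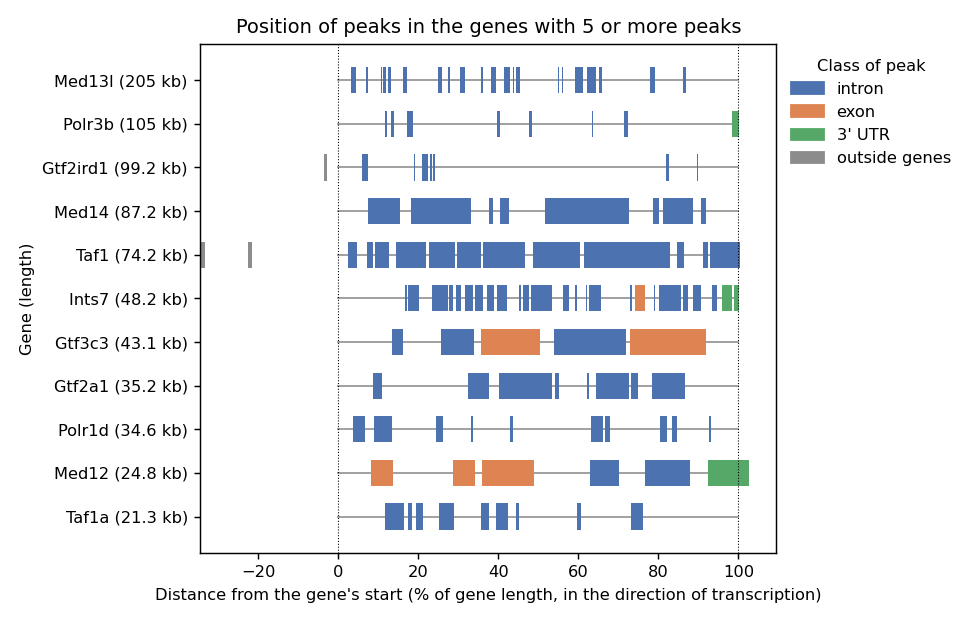
Peaks of the 11 genes with 5 or more peaks, drawn to scale along each gene from its annotated start (0%) to its end (100%), coloured by class. Taf1 is covered over 81.2% of its length, Polr3b and Gtf2ird1 over 7.03% and 5.44%, and only Taf1 and Gtf2ird1 have peaks before the start.

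Along the genes, midpoints were placed for 153 peaks in the 27 members with a strand. The members' intergenic peaks, which lie before the start, are not among them. Midpoints lay in the first 10% of the length in 5.23% (2.67% to 9.98%), against 9.33% for all coding genes, which lies within that interval. From 10% to 50% of the length there were 50.3% (42.5% to 58.1%), against 40.6%, which lies below that interval. The interval takes the 153 peaks as independent, though Med13l gave 29 of them and Ints7 25. The last 10% held 7.84% (4.54% to 13.2%), against 11.3%. The annotated end of the gene lay under a peak in 4 of the 27 members, Ints7, Med12, Polr3b and Taf1 (14.8%, against 15.4%).

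Bin sizes and peak widths differed between chromosomes. The median over the 161 peaks was 1150 bp (interval 920 to 1380 bp, range 200 to 18400 bp), against 1400 bp for all peaks of coding genes. The interval takes the 161 peaks as independent. On chromosome 5 the members' median was 800 bp and that of all coding genes 800 bp, on chromosome 10 both were 1000 bp, and on chromosome 12 they were 2357.5 and 2255 bp. On the X chromosome they were 2530 and 1840 bp, and on chromosome 1 they were 820 and 1025 bp. The other 3 chromosomes hold few of the members' peaks. The medians there were 3600 against 1600 bp on chromosome 16 (3 peaks), 1700 against 1200 bp on chromosome 8 (2 peaks), and 1200 against 3400 bp on chromosome 18 (1 peak). Of the members' peaks 96 lay on chromosomes 1 and 5. Peaks of a single bin made up 14.9%, against 13.1%. None of the 33 on the X chromosome was one, and of all peaks of X-linked coding genes only 3.26% were. On the 8 well covered chromosomes the inferred bins were 200 bp on most, 205 bp on 1 and 12, and 230 bp on X.

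**Figure D4:**
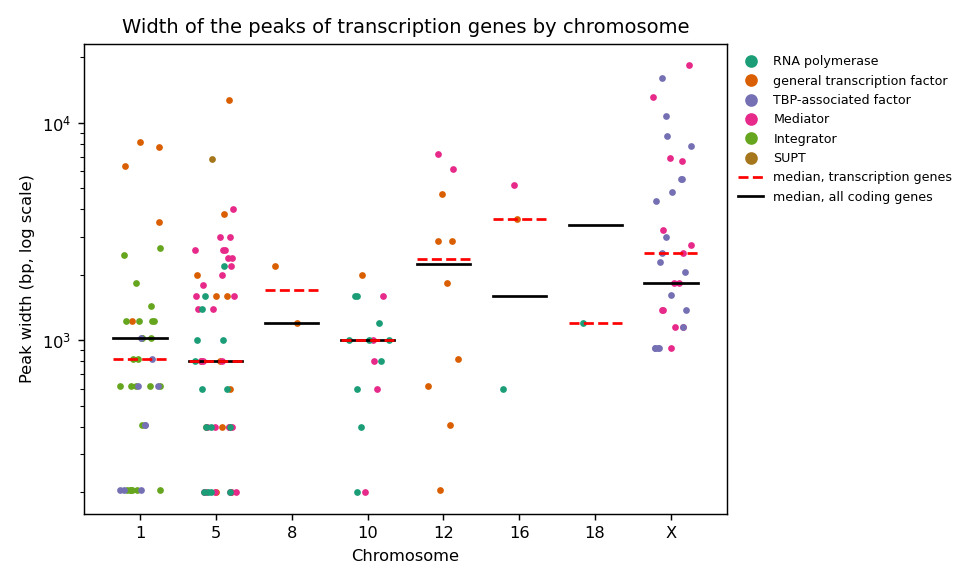
Width of each of the 161 peaks (bp, log scale) by chromosome, coloured by family, with the members' median (red, dashed) and the median of all coding genes (black). The medians coincide at 800 bp on chromosome 5 and 1000 bp on chromosome 10, and the members' stands higher on X, at 2530 against 1840 bp.

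The peaks covered a median of 19.8% of a member (11.2% to 47.1%), against 13.5% of a coding gene with a peak, which lies within that interval. More than 50% was covered in 8 members (26.7%, against 18.2%). These were all 5 X-linked members, Taf1, Taf9b, Med14, Taf7l and Med12 (50.1% to 81.2%), and 3 of 25 autosomal ones, Gtf3c2, Gtf3c3 and Med6 (12%, against 14.2%). Among X-linked coding genes with a peak 37.4% were covered to that extent, with a median of 35.8%, against 57.5% in the 5 members. Without the X chromosome the members' median was 14.6% (9.97% to 21.6%), against 11.2%, which lies within that interval.

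**Figure D5:**
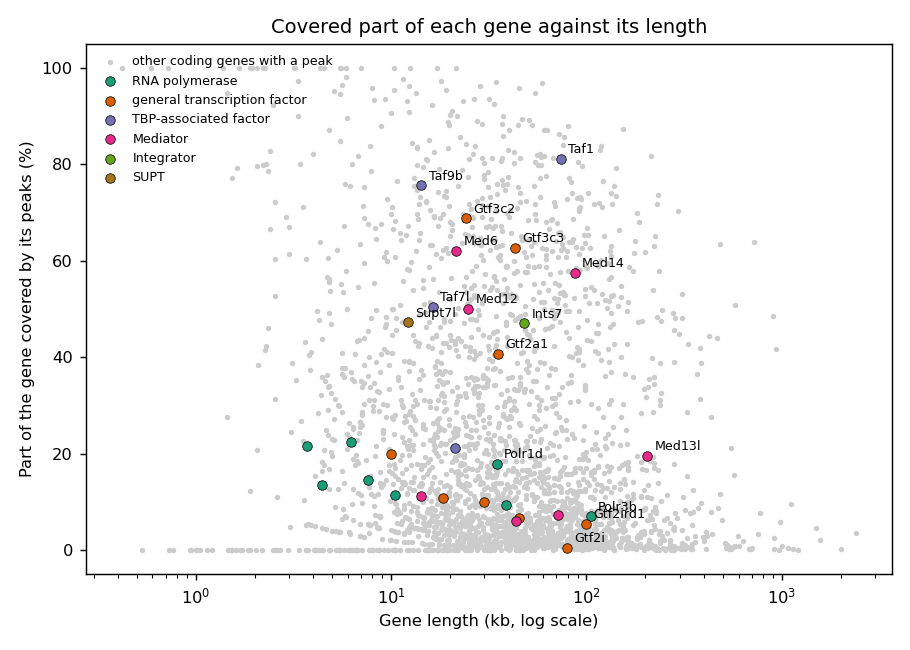
Part of the gene covered by its peaks (%) against gene length (kb, log scale), with other coding genes that have a peak in grey and the 30 members coloured by family. RNA polymerase genes stay at or below 22.4%, while Taf1 (81.2%), Taf9b (75.7%) and Gtf3c2 (68.8%) stand highest.

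The rule left out 22 peaks of genes of the same families. Of these, 15 were assigned to noncoding transcripts of coding genes. Taf1b, another TAF of SL1, had 3 such intron peaks of 5945 to 30750 bp over 71% of the gene. Ints1 had 6, of 200 to 3400 bp, over 18.8%, and Med14 and Ints7 had 1 more each. The other 7 bore other symbols: Ints6l, listed as Ddx26b, had 6 intron peaks over 52.1% of the gene, and the 2.25 kb gene Taf7l2, listed as 4933416C03Rik, had 1 in its 3′ UTR. With Ints6l, all 6 X-linked genes of these families had a peak, against 48.6% of X-linked coding genes. A peak of 5000 bp named for the pseudogene Rps13-ps4 lies over 69.1% of Taf1c, and 1 of 1400 bp named for Ap4m1 lies over 15.8% of Taf6.

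The same machinery has further genes under other symbols, such as Tbp, the P-TEFb kinase and the elongation factors. Of 84 such genes 65 lay on chromosomes with a peak and 23 had one (35.4%, 24.9% to 47.5%, against 18.8%). On the well covered chromosomes 21 of 29 did (72.4%, 54.3% to 85.3%, against 35.7%). The list was chosen with earlier results of these data known, and its shares were not compared by gene length. The values of these genes take every peak that names them, whatever its transcript type, as the shares do. Cdc73, of the PAF1 elongation complex, carried 33 peaks over 58.7% of the gene. Trrap, the scaffold of SAGA, carried 24, of which 6 were exon peaks, over 18.9%. Mnat1, which assembles the TFIIH kinase, carried 13 over 42.8%. Ccnt2, a cyclin of the pause release kinase P-TEFb, carried 11 over 67%, and Cdk8, the Mediator kinase, carried 11 over 13.3%.

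The elongation factor Iws1 and the phosphatase Ctdp1 carried 7 each, over 76.6% and 52%, and Rpap2, a phosphatase of the polymerase tail, carried 6 over 13%. Brf1, a TFIIIB subunit, and Ccnk, the cyclin of Cdk12 and Cdk13, carried 5 each, over 33.2% and 23.9%. From peaks of coding transcripts alone, as the members are counted, Iws1 had 4 over 63.2% and Brf1 had 3 over 26.4%.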

How the data were processed

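RNA was sequenced from 1 anti-BUD31 and 1 input library. Per the submitters' processing notes, TopHat2 2.0.13 was used with the mm10 build. How peaks were called and annotated is not given in the sources used here. In the authors' deposited list stand, per the file headers, each peak's number, position, class, transcript, gene and transcript type, and no measured value beside the position, so no count model or test was used. The members, gene lists and complexes were chosen with earlier results of these data known. Each member was named and grouped by complex; those with 5 or more peaks, over 50% cover or a peak outside introns, and Polr1d, Polr3b, Gtf2a1 and Gtf2i, are given in full, and of the other machinery genes the 12 with the most peaks, ties taken in the order of their symbols, and some that this rule would name are not reported here.

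Gene numbers were matched to a RefSeq gene table of GRCm38.p6, the mm10 assembly. Of the 3258 genes in the list 3216 matched, all 30 members included. Strand came from the RefSeq promoter table and was missing for 3 members, Gtf2e2, Med23 and Polr2d. A gene's covered part is the overlap of its peaks with its extent, and an overlap needs at least 1 bp. Promoter windows run from 250 bases before to 50 after a start. Coverage and overlap code was checked on simulated intervals. Alternatives were the peaks counted, how they are tied to genes, their width and the chromosomes. Scripts ran under Python 3.11.15 with matplotlib 3.10.9, numpy 2.4.6, pandas 2.3.3 and scipy 1.17.1.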

Additional observations from a re-analysis of the deposited data

How the results depend on the processing

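Of 23 alternatives to 5 results, 17 stayed within the interval of the reported value and 6 moved beyond it. With well covered chromosomes only, transcription genes had a peak in 75.6% and the other machinery genes in 72.4%, by construction, since genes on chromosomes with few listed peaks leave the count. With the widest peak of each gene 76.7% of 30 peaks were intronic (74.9% for all coding genes). The median width was 1550 bp over each gene's own median, 820 bp without the X chromosome and 1700 bp for peaks of at least 4 bins. The value for peaks of at least 4 bins is higher by construction, since narrower peaks leave the count. Against all coding genes (1435, 1230 and 2200 bp) the members were thus wider in the first case and narrower in the others, and the cause was not tested. The share of transcription genes with a peak ran from 32.9% to 39.6% under the other alternatives, against 15% to 19% of all coding genes. No paired analysis was possible because there was 1 library per group and the list gives no value per library. Depth is unknown, so an absent peak may be one that could not be called, and the list lacks numbers between the first and last peaks of genes.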

Other observations

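The authors numbered peaks in order along each chromosome, and many numbers between a member's first and last peak have no peak in the list. Over the 30 members 136 of 299 such numbers were absent (45.5%), near the 47.5% over all coding genes with a peak. In Med13l 54 of 83 were, in Gtf2ird1 22 of 30, in Polr1d 17 of 27 and in Polr3b 16 of 24. Which gene the absent numbers were assigned to is not given, so the counts of these genes are counts of listed peaks only. Among X-linked members 3 of 37 were absent (8.11%), against 20.8% for X-linked coding genes, and among autosomal ones 50.8%, against 51.8%. What separated the listed peaks from the others is not given, and its part in the difference in covered length between X-linked and autosomal members was not tested.

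Several genes of these families lie near each other. Polrmt, Med16 and Polr2e stand within 148 kb and 127 kb of their neighbour on chromosome 10, and all had peaks, of 1, 3 and 1. Med12 and Taf1 stand 229 kb apart on the X chromosome, and the 2 intergenic peaks assigned to Taf1 lie between them. Gtf3a, which has no peak and is not a member, stands 121 kb from Polr1d, which has 10, on chromosome 5.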
